A study of Mus musculus with 17 samples.

Results

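Muscle that received a control plasmid was compared with mobile muscle across all genes on the array. The comparison sets the 4 arrays labelled Control Transfection against the 3 arrays labelled Control Mobile, which are 7 of the 17 arrays of the series. Each gene was read from 1 probe, the one with the highest mean over the 17 arrays, and 10607 of the 16593 named genes were bright enough to be tested. Values are on the log2 scale, so that a difference of 1 is a 2-fold change, and differences are Control Transfection minus Control Mobile unless another pair is named.

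The series measured the tibialis anterior, a fast muscle of the shin, in male mice aged 8 weeks, with 1 single-colour bead array per sample and muscles taken at day 3. Control Transfection muscles (4 arrays) came from C57BL/6 mice, called wild type in the series text, and received a control plasmid. p53 Transfection muscles (4 arrays) came from C57BL/6 mice and received a p53 plasmid. Control Immobile muscles (3 arrays) came from immobilized hindlimbs of littermate controls of p53 mKO mice, and p53 mKO Immobile muscles (3 arrays) came from immobilized hindlimbs of the knockouts. Control Mobile muscles (3 arrays) came from mobile hindlimbs of littermate controls, for which no strain is labelled. The labels do not give the route of plasmid delivery, what the control plasmid encodes, the alleles that the littermate controls carry, the driver of the muscle knockout, or whether a mouse with a mobile hindlimb had its other hindlimb immobilized. They also do not say which muscles came from the same mouse, so each p-value weighs a difference against the spread between arrays, which may be technical. No array of muscle that underwent the procedure without plasmid was used here. Plasmid DNA, the delivery procedure, strain and experiment therefore cannot be told apart in any difference below.

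DNA that reaches the inside of a cell can be recognised by sensor proteins in the cytosol and in endosomes. Their signals run through the interferon regulatory factors and lead to secretion of type I interferon, which acts back on neighbouring cells. IRF9 then helps to bind the interferon-stimulated response element in the promoters of antiviral genes, while interferon gamma from NK and T cells switches on guanylate-binding proteins and antigen presentation. Damaged skeletal muscle is entered by neutrophils and then by monocytes, which become macrophages that clear debris while satellite cells divide and rebuild fibres.

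The muscle markers were bright on all arrays. Ckm, muscle creatine kinase, stood at 15.34, 15.31, 15.34 and 15.37 in Control Transfection muscles, against 15.28, 15.36 and 15.34 in Control Mobile muscles. Myh4, the myosin of the fastest fibres, stood at 14.95, 14.84, 14.93 and 14.9 in Control Transfection muscles, against 15.16, 15 and 14.92 in Control Mobile muscles. The groups overlap for both genes, and neither passed the test (adjusted p = 0.754 and 0.126, limma). The array medians lay between 8.48 and 8.5, and the values ran from 8.21 to 15.61. The scale begins just above 8 and its brightest value is 15.61, so differences of dim genes are compressed, and those of probes near the top, Ckm and Myh4 included, may be too. These markers show that muscle RNA was present and cannot show that its amount was equal. Among the 4 Control Transfection arrays, array 2 carried keratinocyte genes and arrays 2 and 4 stood above the other two for genes of denervated or regenerating fibres, as given with those results. Control Mobile array 1 stood above arrays 2 and 3 for some of the fibre genes. Control Immobile array 1 stood apart from arrays 2 and 3, so values against that group are given with and without it.

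Almost as many genes passed the test as did not. At an adjusted p under 0.05 (limma, Benjamini-Hochberg over all tested genes), 2041 genes (19.2%) were higher and 2908 genes (27.4%) were lower in Control Transfection muscles. Counts of list members for this comparison are to be read beside these shares. The 2 groups did not overlap in 50.7% of genes. The rises were larger than the falls: 303 genes rose and 21 genes fell by at least 2-fold, and 78 rose and 2 fell by at least 4-fold. The median fold of the risen genes was 1.28 and that of the fallen genes was 1.21. The median difference over all tested genes was -0.035. Leaving out each array in turn kept the call and direction of 3801 of the 4949 called genes (76.8%), and of 301 of the 303 genes that rose by at least 2-fold.

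**Figure D1:**
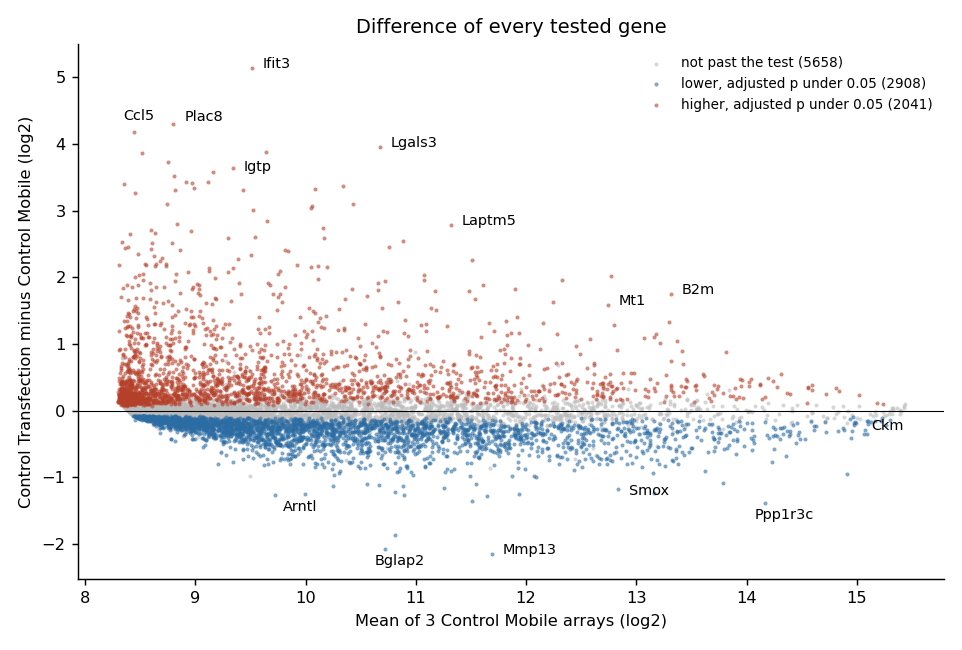
Difference between the Control Transfection and Control Mobile means (log2, vertical axis) against the mean of the 3 Control Mobile arrays (log2, horizontal axis), with 1 point for each of the 10607 tested genes. Red points passed the test as higher (2041) and blue points as lower (2908). The red cloud reaches 5.13 at Ifit3, while the lowest blue point, Mmp13, lies at -2.16.

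Sensor genes were mostly higher. Of the 29 genes on the list of DNA and RNA sensors and their adaptors, 24 had a probe and 22 were tested. Of these, 18 were higher and 1 was lower, with a median difference of 0.67. Dhx58, an RNA helicase of the cytosolic RNA-sensing family, stood at 10.43, 10.51, 10.65 and 10.24 in Control Transfection muscles, against 8.44, 8.49 and 8.42 in Control Mobile muscles. Every Control Transfection array lay more than 1 unit above every Control Mobile array (difference 2.01 ± 0.09 SE, adjusted p = 3.56e-06, limma). Tlr7, an endosomal receptor for single-stranded RNA, rose by 1.17 ± 0.07 SE, and Tlr2, a receptor for bacterial lipopeptides, rose by 1.61 ± 0.09 SE. Myd88, the adaptor shared by most Toll-like receptors, stood at 11.75, 11.74, 11.99 and 11.79 in Control Transfection muscles, against 10.23, 10.39 and 10.28 in Control Mobile muscles. Casp1, the protease at the end of the inflammasome, stood at 11.33, 11.24, 11.49 and 10.83 in Control Transfection muscles, against 9.08, 9.18 and 9.12 in Control Mobile muscles. The members did not move as a block: Cgas, which makes cyclic dinucleotide on contact with cytosolic DNA, stood at 8.45, 8.44, 8.49 and 8.38 in Control Transfection muscles, against 8.4, 8.41 and 8.43 in Control Mobile muscles. Its groups overlap near the floor of the scale (difference 0.03 ± 0.03 SE, adjusted p = 0.544). Cgas does not stand for the other nucleic acid sensors of the list. Ifi204 and Zbp1 rose by 0.80 ± 0.12 SE and 0.45 ± 0.05 SE, without overlap of the groups. Mavs, the mitochondrial adaptor of the RNA sensors, fell by 0.46 on the log2 scale. Sting1 had no listed probe.

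The transcription factors of the interferon response were higher or did not pass the test. Of 18 genes on that list 17 had a probe and 16 were tested, with 11 higher, 0 lower and a median difference of 0.52 (of all tested genes, 27.4% were lower). Irf7, the factor that amplifies type I interferon production, stood at 10.86, 11.23, 11.29 and 10.84 in Control Transfection muscles, against 8.39, 8.42 and 8.42 in Control Mobile muscles. The Control Mobile arrays lay near the floor of the scale, so the 6.25-fold difference is compressed (adjusted p = 3.91e-06). Irf1, a factor induced by interferon gamma, stood at 12.33, 12.76, 12.89 and 12.31 in Control Transfection muscles, against 10.54, 10.73 and 10.7 in Control Mobile muscles. Irf9 and Stat2, which act in the response to type I interferon, rose by 1.65 ± 0.07 SE and 1.30 ± 0.09 SE. Ifng itself was close to the floor on every array, at 8.41, 8.45, 8.49 and 8.46 in Control Transfection muscles, against 8.34, 8.37 and 8.34 in Control Mobile muscles. It passed the test with a difference of 0.10 ± 0.03 SE (adjusted p = 0.025), but not without Control Mobile array 3 (adjusted p = 0.0694).

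The genes that these factors switch on made the largest group of strong rises. Of 49 interferon-stimulated effectors 44 had a probe and 41 were tested, of which 39 were higher and 0 lower, 29 of them by at least 2-fold, with a median difference of 1.68. Ifit3, which binds viral RNA caps with its relatives, had the largest rise of all tested genes. It stood at 14.65, 14.68, 14.79 and 14.47 in Control Transfection muscles, against 9.51, 9.52 and 9.51 in Control Mobile muscles. The difference of 5.13 ± 0.07 SE is 35.1-fold (adjusted p = 2.91e-08), and its 3 probes differed by 4.29 to 5.13. Ifit1, of the same family, had a probe but was too dim to be tested. Rsad2, or viperin, which makes a chain-terminating nucleotide, stood at 13.42, 13.53, 13.73 and 13.37 in Control Transfection muscles, against 9.64, 9.62 and 9.66 in Control Mobile muscles. Isg15, a ubiquitin-like modifier, stood at 12.17, 12.46, 12.65 and 12.05 in Control Transfection muscles, against 8.8, 8.88 and 8.75 in Control Mobile muscles. Usp18, the protease that removes Isg15 and dampens the receptor, rose by 3.42 ± 0.10 SE. Oasl2, of the oligoadenylate synthetase family, rose by 3.43 ± 0.08 SE. For each of the tested genes named here the lowest Control Transfection array lay over 3 units above the highest Control Mobile array.

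Genes for GTPases that interferon gamma induces moved in the same direction, and which interferon acted on them was not tested. Of 16 genes for immunity-related and guanylate-binding GTPases 14 had a probe and 12 were tested, with 11 higher, 0 lower and a median difference of 1.40. Igtp, which acts on vacuoles that hold parasites, stood at 12.7, 13.19, 13.27 and 12.79 in Control Transfection muscles, against 9.25, 9.35 and 9.43 in Control Mobile muscles. The difference was 3.64 ± 0.14 SE, or 12.5-fold (adjusted p = 2.6e-06). Gbp2 and Gbp3, guanylate-binding proteins, rose by 3.07 ± 0.14 SE and 3.01 ± 0.14 SE. The probes of Gbp2 disagreed in size, between 0.11 and 3.07, and those of Gbp3 gave 3.01 and 3.10. Gm4841, a gene model known by its number, rose by 3.73 ± 0.16 SE.

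**Figure D2:**
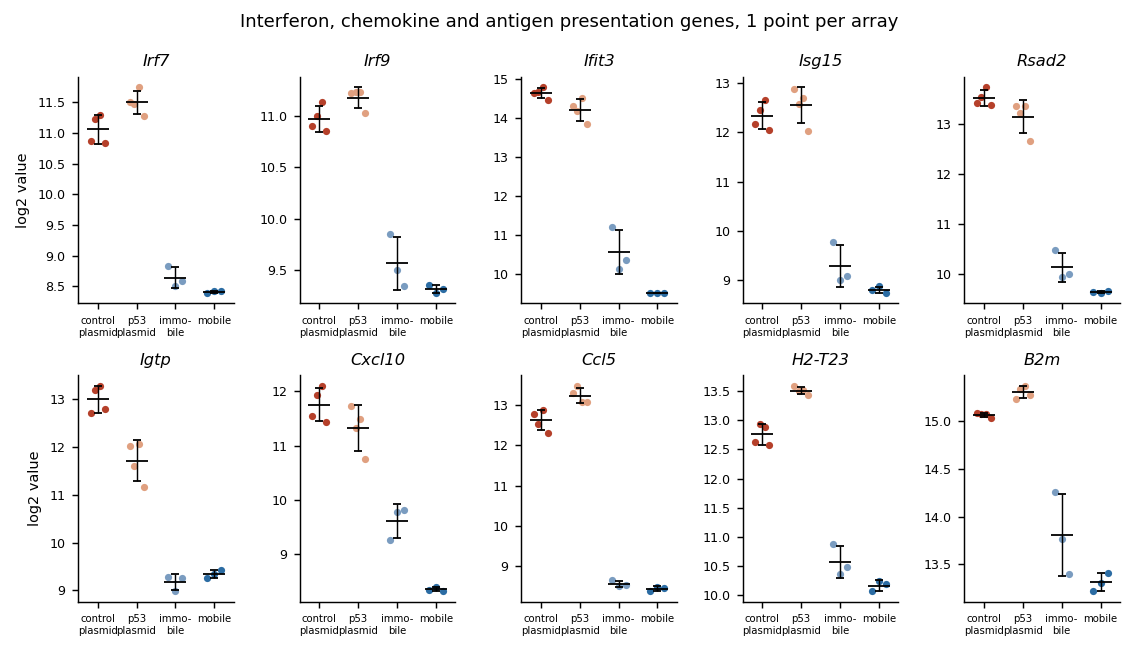
Log2 value of 10 genes on each array (vertical axes, 1 scale per gene), by group from left to right: Control Transfection (4 arrays), p53 Transfection (4), Control Immobile (3) and Control Mobile (3). Points are arrays, and bars are the mean and SD. All Control Transfection arrays lie above all Control Mobile arrays for each gene, for example at 14.47 to 14.79 against 9.51 to 9.52 for Ifit3.

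The promoters of 5 of these genes are shown because their genes are among the largest rises and each holds a match to the core of the interferon-stimulated response element. The sequences are RefSeq's, build GRCm38.p6, and give the 250 bases before the annotated start, 5′ to 3′ on the gene's own strand. Capitals mark matches to that core, GAAA followed by any 2 bases and GAAA again, on either strand. In Isg15 the 3 matches overlap and form 1 capital run.
Ifit3, chr19:34583279-34583528, plus strand: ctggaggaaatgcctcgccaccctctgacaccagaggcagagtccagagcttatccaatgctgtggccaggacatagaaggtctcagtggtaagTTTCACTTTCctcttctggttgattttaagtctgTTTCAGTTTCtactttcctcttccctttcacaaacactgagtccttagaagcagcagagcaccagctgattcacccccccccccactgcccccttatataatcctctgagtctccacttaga
Isg15, chr4:156200819-156201068, minus strand: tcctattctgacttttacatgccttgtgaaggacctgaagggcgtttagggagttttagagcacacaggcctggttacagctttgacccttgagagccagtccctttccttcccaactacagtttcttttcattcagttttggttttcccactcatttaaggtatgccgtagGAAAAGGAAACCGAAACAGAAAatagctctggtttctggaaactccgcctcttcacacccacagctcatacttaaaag
Rsad2, chr12:26456453-26456702, minus strand: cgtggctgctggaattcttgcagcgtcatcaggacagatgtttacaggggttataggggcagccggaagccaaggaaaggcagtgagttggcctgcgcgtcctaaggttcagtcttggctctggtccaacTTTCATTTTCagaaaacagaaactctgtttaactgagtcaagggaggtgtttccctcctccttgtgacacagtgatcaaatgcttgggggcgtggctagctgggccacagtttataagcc
Igtp, chr11:58199306-58199555, plus strand: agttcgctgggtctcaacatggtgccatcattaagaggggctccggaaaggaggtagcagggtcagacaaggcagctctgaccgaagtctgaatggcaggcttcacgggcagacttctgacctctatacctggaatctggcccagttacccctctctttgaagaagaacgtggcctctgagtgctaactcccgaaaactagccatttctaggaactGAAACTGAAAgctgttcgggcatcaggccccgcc
Cxcl10, chr5:92348890-92349139, minus strand: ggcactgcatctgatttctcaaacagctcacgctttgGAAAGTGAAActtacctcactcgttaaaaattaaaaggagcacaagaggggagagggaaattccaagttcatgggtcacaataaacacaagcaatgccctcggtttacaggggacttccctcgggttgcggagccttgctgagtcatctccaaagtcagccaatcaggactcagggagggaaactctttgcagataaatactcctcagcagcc
The matches begin 156 and 122 bases before the start in Ifit3, 78, 72 and 66 bases before it in Isg15, 120 in Rsad2, 34 in Igtp and 213 in Cxcl10. Both strands of windows from 250 bases before to 50 bases after the start were searched for that core. Over all 32851 promoter windows, 3.44% held it. Of the tested genes with a window, 331 of 8583 (3.86%) held it, against 119 of 1645 risen genes (7.23%) and 64 of 2356 fallen genes (2.72%), or 1 of the 17 that fell by at least 2-fold (5.88%). The share was 38 of 236 (16.1%) among genes that rose by at least 2-fold and 17 of 59 (28.8%) among those that rose by at least 4-fold. It was 14 of 30 (46.7%) among the tested interferon-stimulated effectors and 8 of 9 (88.9%) among the tested GTPases, against 2 of 43 (4.65%) among the tested mitochondrial respiration genes. A match describes the letters of a window and does not show that a factor was bound there.

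Antigen presentation genes rose together. Of 24 genes of MHC class I and peptide loading 21 had a probe and 20 were tested, and 20 of 20 were higher, with a median difference of 1.11. B2m, the light chain of every class I molecule, stood at 15.08, 15.07, 15.07 and 15.03 in Control Transfection muscles, against 13.22, 13.31 and 13.41 in Control Mobile muscles. The difference of 1.75 ± 0.05 SE is 3.36-fold (adjusted p = 5.92e-07), while its 3 probes ranged from 0.00 to 1.79. H2-T23, a nonclassical class I gene read by NK cells, stood at 12.63, 12.93, 12.89 and 12.58 in Control Transfection muscles, against 10.07, 10.25 and 10.19 in Control Mobile muscles. H2-Q7 rose by 2.28 ± 0.08 SE and H2-K1 by 0.98 ± 0.04 SE. Psmb9, an interferon-induced subunit of the immunoproteasome, rose by 2.08 ± 0.12 SE, and Tap1, a subunit of the peptide pump, by 1.11 ± 0.07 SE. Of 15 MHC class II genes 15 had a probe and 12 were tested, with 10 higher, 0 lower and a median of 0.75. Ctss, the cathepsin that trims the invariant chain, stood at 10.99, 10.71, 11.06 and 10.48 in Control Transfection muscles, against 8.75, 8.56 and 8.6 in Control Mobile muscles. H2-DMb1, part of the class II peptide editor, rose by 1.16 ± 0.08 SE, and Cd40, a costimulatory receptor, by 0.87 ± 0.08 SE. MHC genes differ in sequence between mouse strains, and whether strain changed the hybridisation of these probes was not tested.

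Chemokines that draw monocytes, T cells and NK cells were among the largest rises. Of 28 chemokine genes 28 had a probe and 22 were tested, with 16 higher, 2 lower and a median difference of 0.73. Ccl5, which draws T cells and monocytes, stood at 12.77, 12.53, 12.88 and 12.31 in Control Transfection muscles, against 8.38, 8.49 and 8.47 in Control Mobile muscles. The difference of 4.18 ± 0.13 SE is 18.1-fold (adjusted p = 1.05e-06). Cxcl10 and Cxcl9, ligands of the receptor Cxcr3 on T and NK cells, rose by 3.40 ± 0.15 SE and 3.34 ± 0.14 SE. Cxcl10 stood at 11.55, 11.93, 12.1 and 11.44 in Control Transfection muscles, against 8.34, 8.4 and 8.33 in Control Mobile muscles. Ccl7, Ccl8 and Ccl2, monocyte chemoattractants, rose by 3.27 ± 0.15 SE, 2.52 ± 0.11 SE and 1.65 ± 0.13 SE. Cxcl12, a constitutive chemokine of stromal cells, fell by 0.80 on the log2 scale, at 11.7, 11.65, 11.55 and 11.75 in Control Transfection muscles, against 12.47, 12.57 and 12.35 in Control Mobile muscles. Of 19 chemokine receptor genes 18 had a probe and 10 were tested. Of these 3 were higher and 0 lower, among them Cxcr3 (0.30 ± 0.03 SE) and Cx3cr1 (0.33 ± 0.04 SE). The other 8 with a probe, Ccr2 among them, were too dim to be tested. Of 27 tested cytokine and receptor genes 21 were higher and 0 lower, with a median of 0.23. Il10ra, a chain of the interleukin 10 receptor, rose by 1.49 ± 0.08 SE and Tgfb1 by 0.62 ± 0.04 SE.

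Complement genes were higher as well: of 20 on the list 15 had a probe and 12 were tested, with 10 higher, 0 lower and a median of 0.71. C1qb, a chain of the recognition molecule C1q that macrophages make, stood at 13.03, 13.04, 12.88 and 12.63 in Control Transfection muscles, against 10.1, 10.24 and 10.13 in Control Mobile muscles. Its partners C1qc and C1qa rose by 2.18 ± 0.13 SE and 1.61 ± 0.08 SE, with Control Transfection array 4 lowest for all 3 chains. Cfb, factor B of the alternative pathway, rose by 2.24 ± 0.07 SE. Of 19 tested acute phase and antimicrobial genes 8 were higher and 1 was lower. Serpina3n, a protease inhibitor of the acute phase, stood at 10.69, 10.67, 10.82 and 11.3 in Control Transfection muscles, against 9.25, 9.23 and 9.09 in Control Mobile muscles.

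Macrophage and monocyte genes rose strongly. Of 43 such genes 36 had a probe and 33 were tested, with 26 higher, 2 lower and 19 higher by at least 2-fold, and with a median difference of 1.49. The mean of the tested members, relative to the Control Mobile mean, was 1.52, 1.42, 1.49 and 1.26 on the Control Transfection arrays, against 0.02, -0.03 and 0.00 on the Control Mobile arrays. In whole muscle, more cells of a type and more RNA per cell cannot be told apart. Adgre1, a surface antigen that marks macrophages, stood at 12.06, 11.94, 12.03 and 11.51 in Control Transfection muscles, against 9.38, 9.16 and 9.35 in Control Mobile muscles. The difference was 2.59 ± 0.13 SE, or 6.01-fold (adjusted p = 6.56e-06). Plac8, expressed by monocytes and inducible by interferon, stood at 13.16, 12.93, 13.31 and 13 in Control Transfection muscles, against 8.79, 8.81 and 8.8 in Control Mobile muscles. Fcer1g, the signalling chain of Fc receptors, stood at 13.76, 13.73, 13.85 and 13.48 in Control Transfection muscles, against 10.41, 10.39 and 10.22 in Control Mobile muscles. Ms4a7 rose by 3.44 ± 0.10 SE, Gpnmb, a glycoprotein of lipid-laden macrophages, by 3.32 ± 0.09 SE, and Trem2, a receptor for lipids and debris, by 2.35 ± 0.09 SE. Lgals3, a lectin abundant in phagocytes, stood at 14.66, 14.65, 14.57 and 14.63 in Control Transfection muscles, against 11.38, 10.31 and 10.33 in Control Mobile muscles, where array 1 lay above arrays 2 and 3.

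Not all macrophage markers moved up. Cd163, the haptoglobin-haemoglobin receptor of resident macrophages, stood at 9.1, 8.87, 8.77 and 8.92 in Control Transfection muscles, against 9.61, 9.41 and 9.69 in Control Mobile muscles, and fell by 0.66 on the log2 scale (adjusted p = 0.000721). Retnla, a secreted protein of macrophages exposed to type 2 cytokines, is not on the macrophage list. Retnla stood at 9.35, 8.8, 8.92 and 8.66 in Control Transfection muscles, against 11.25, 10.68 and 10.49 in Control Mobile muscles. It had the third largest fall of the genes whose groups do not overlap (difference -1.87 ± 0.21 SE, 3.67-fold). Arg1, arginase, was near the floor at 8.61, 8.42, 8.52 and 8.36 in Control Transfection muscles, against 8.41, 8.32 and 8.35 in Control Mobile muscles (adjusted p = 0.151).

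Genes for taking up and digesting material were also mostly higher. The list of phagocytosis and Fc receptors shares members with the macrophage list, among them Fcer1g and Trem2, and shares Laptm5 with the lysosome list. These counts are therefore not independent of each other. Of 24 tested genes of phagocytosis and Fc receptors 17 were higher and 0 lower, with a median of 1.13. Fcgr4, an activating receptor for antibody, stood at 12.37, 12.45, 12.77 and 11.95 in Control Transfection muscles, against 8.5, 8.5 and 8.55 in Control Mobile muscles (difference 3.87 ± 0.16 SE, adjusted p = 3.37e-06). Laptm5, a lysosomal membrane protein of blood cells, rose by 2.78 ± 0.09 SE. Of 25 tested lysosomal genes 19 were higher and 1 was lower, with a median of 0.89. Lgmn, the protease legumain, stood at 13.56, 13.46, 13.32 and 13.37 in Control Transfection muscles, against 11.03, 10.78 and 10.84 in Control Mobile muscles. Grn, progranulin, rose by 2.45 ± 0.12 SE, and Npc2, a cholesterol carrier of the lysosome, by 1.75 ± 0.08 SE.

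T and NK cell genes rose by less. Of 34 listed genes 28 had a probe and 19 were tested, with 13 higher, 1 lower and a median difference of 0.22, while 9 lay below the filter on dim genes. The mean of the tested members was 0.33, 0.32, 0.34 and 0.31 above Control Mobile on the Control Transfection arrays, against -0.03, 0.01 and 0.02 on the Control Mobile arrays. Klrd1, the NK receptor CD94, stood at 9.66, 9.64, 9.68 and 9.82 in Control Transfection muscles, against 8.36, 8.38 and 8.33 in Control Mobile muscles. Nkg7, a granule protein of cytotoxic cells, rose by 1.11 ± 0.04 SE. The T cell receptor chains Cd3d, Cd3g and Cd3e rose by 0.41 ± 0.04 SE, 0.32 ± 0.03 SE and 0.14 ± 0.03 SE, all from Control Mobile values within 0.2 of the floor. Cd8a and Ncr1 were below the filter, at 8.29 to 8.31 and 8.32 to 8.36 in Control Transfection muscles, against 8.31 to 8.32 and 8.27 to 8.34 in Control Mobile muscles.

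Few granulocyte genes passed the test, and mast cell genes were lower. Of 23 neutrophil genes 19 had a probe and 9 were tested, with 1 higher and 1 lower. S100a9, a calcium-binding protein abundant in neutrophils, stood at 8.51, 8.64, 8.44 and 8.46 in Control Transfection muscles, against 9.2, 10.64 and 8.64 in Control Mobile muscles. Control Mobile array 2 lay far above the other two there and for S100a8, and neither gene passed the test (adjusted p = 0.0824 and 0.324). Mmp9, a gelatinase of neutrophils and other cells, fell by 0.62 on the log2 scale. All 5 tested genes of mast cells and eosinophils, of 17 listed and 14 with a probe, were lower. Cpa3, a mast cell carboxypeptidase, stood at 8.83, 8.84, 8.84 and 8.69 in Control Transfection muscles, against 9.51, 9.66 and 9.7 in Control Mobile muscles. The difference was -0.82 ± 0.06 SE (adjusted p = 2.75e-05), and Mcpt4, a mast cell protease, differed by -0.72 ± 0.09 SE. Of 15 B cell genes 4 were tested, and 0 passed, the strongest by p being Cd79b (0.06 ± 0.03 SE, adjusted p = 0.171). At an unadjusted p under 0.05 the count was also 0 of 4 (limma).

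**Figure D3:**
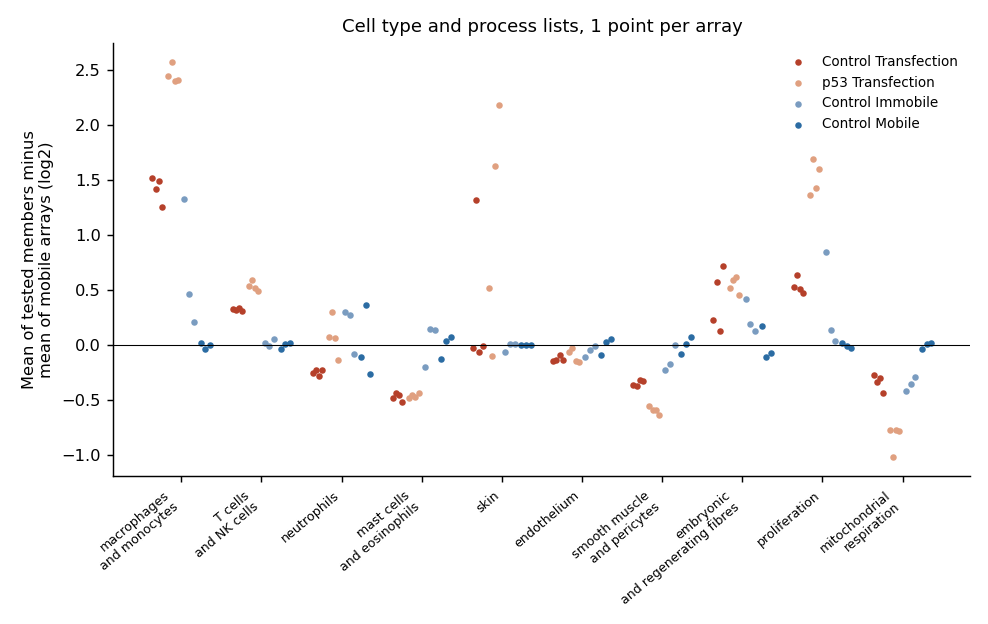
Mean log2 value of the tested members of 10 lists on each array, relative to the mean of the Control Mobile arrays (vertical axis), for the lists named on the horizontal axis. Points are arrays, in the order Control Transfection (4), p53 Transfection (4), Control Immobile (3) and Control Mobile (3) within each list. Macrophage genes lie at 1.26 to 1.52 on the Control Transfection arrays, and skin genes reach 1.32 on Control Transfection array 2 alone of these 4.

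Cell division genes were higher. Of 45 proliferation genes 42 had a probe and 36 were tested, with 30 higher, 1 lower and a median of 0.43. Uhrf1, which carries DNA methylation through replication, stood at 9.96, 10.14, 9.88 and 9.76 in Control Transfection muscles, against 8.53, 8.49 and 8.41 in Control Mobile muscles. The replication helicase subunits Mcm5 and Mcm4 rose by 1.29 ± 0.09 SE and 0.85 ± 0.05 SE, although only 1 of 3 probes of Mcm4 passed the test. Ccnd1, the cyclin that starts the cycle, stood at 11.6, 11.55, 11.57 and 11.32 in Control Transfection muscles, against 9.9, 10.1 and 10.38 in Control Mobile muscles. Of 30 tested cytosolic ribosomal proteins 25 were higher and 1 was lower, with a median of 0.35. Rpl3, which adult fibres largely replace by a muscle-specific paralog, rose by 1.08 ± 0.08 SE, and Rps16 by 0.70 ± 0.04 SE. The array mixes dividing cells of every type, and which cells carried these transcripts was not tested.

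Genes of satellite cells did not move one way. Of 22 tested genes 8 were higher and 6 were lower, with a median of 0.09. The higher genes include Itga7 (0.79 ± 0.22 SE) and Mymk (0.31 ± 0.085 SE), without overlap of the groups. Among the lower genes were Chodl (-0.60 ± 0.07 SE), Hey1 (-0.29 ± 0.06 SE), Heyl (-0.24 ± 0.03 SE) and Notch1 (-0.18 ± 0.04 SE). Pax3, Myf5 and Calcr were below the filter on dim genes. Pax7, which marks satellite cells, was also below the filter, at 8.28 to 8.32 in Control Transfection muscles, against 8.3 to 8.31 in Control Mobile muscles. Myod1, of committed myoblasts, stood at 9.33, 9.57, 9.11 and 9.85 in Control Transfection muscles, against 9.48, 9.27 and 9.21 in Control Mobile muscles, and did not pass (adjusted p = 0.498). Myog, which drives differentiation and is induced when a fibre loses its nerve, stood at 9.27, 9.93, 9.28 and 10.39 in Control Transfection muscles, against 8.65, 8.62 and 8.62 in Control Mobile muscles. Arrays 2 and 4 lay above arrays 1 and 3, and all 4 lay above the Control Mobile arrays (difference 1.09 ± 0.26 SE, adjusted p = 0.0105). The 2 probes of Myog differed by 0.17 and 1.09, and only 1 of them passed the test.

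The same arrays led for the genes of embryonic, regenerating or denervated fibres. Of 23 tested genes of embryonic and regenerating fibres 6 were higher and 3 were lower, and of 20 tested genes of denervation and the neuromuscular junction 9 were higher and 2 were lower. The 6 higher embryonic genes include acetylcholine receptor subunits, Chrng and Chrna1 among them, so their count does not separate regeneration from denervation. The means of the tested embryonic genes were 0.23, 0.58, 0.13 and 0.72 on the Control Transfection arrays, against 0.18, -0.11 and -0.07 on the Control Mobile arrays. The groups overlap only because Control Mobile array 1 lay above Control Transfection array 3. Control Mobile array 1 also lay above arrays 2 and 3 for Csrp3 (13.67, against 11.46 and 11.49) and Tnfrsf12a (10.98, against 9.52 and 9.36). For Actc1 it lay below them (11.91, against 12.68 and 12.35). None of these 3 genes passed the test. Chrng, the fetal subunit of the acetylcholine receptor, stood at 9.57, 10.6, 9.45 and 11.02 in Control Transfection muscles, against 8.46, 8.44 and 8.5 in Control Mobile muscles (difference 1.69 ± 0.37 SE, adjusted p = 0.00672). Chrna1, the alpha subunit of the same receptor, stood at 11.94, 12.49, 11.69 and 12.98 in Control Transfection muscles, against 10.57, 10.37 and 10.74 in Control Mobile muscles. The 3 probes of Chrna1 disagreed in size, between 0.11 and 1.72, and all 3 passed. Chrne, the subunit of the adult receptor, fell by 0.51 on the log2 scale and had no such split between arrays. Myl4, an embryonic light chain, rose by 1.54 ± 0.22 SE. Ankrd1, a stress-induced protein of the sarcomere, stood at 12.1, 12.86, 12.11 and 13.57 in Control Transfection muscles, against 11.72, 10.22 and 10.21 in Control Mobile muscles, and rose by 1.94 ± 0.48 SE, although the call was lost without Control Mobile array 2 (adjusted p = 0.0511). Myh8, perinatal myosin, stood at 9.5, 10.54, 9.45 and 10.26 in Control Transfection muscles, against 9.69, 9.22 and 9.15 in Control Mobile muscles, and did not pass (adjusted p = 0.132). Without Control Transfection arrays 2 and 4, the counts for embryonic genes were 4 higher and 2 lower, and the difference was 1.04 for Chrng and 0.65 for Myog. Splitting the arrays this way was chosen after their values were seen.

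**Figure D4:**
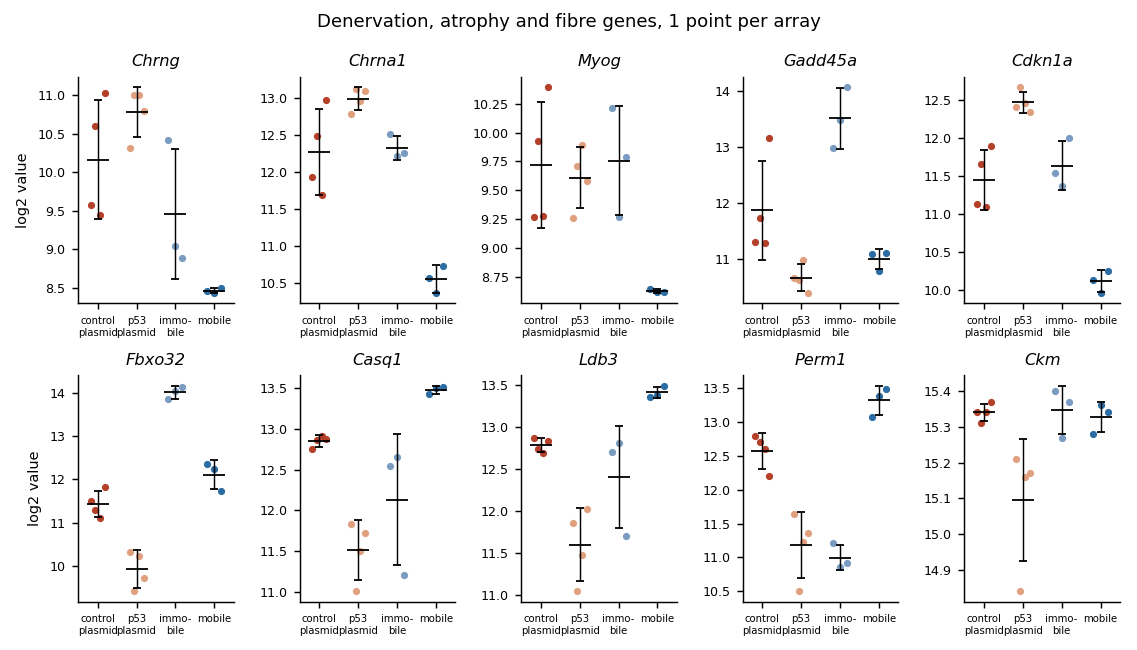
Log2 value of 10 genes of denervation, atrophy and the contractile fibre on each array (vertical axes, 1 scale per gene), in the order Control Transfection (4 arrays), p53 Transfection (4), Control Immobile (3) and Control Mobile (3). Points are arrays, and bars are the mean and SD. Chrng, Myog and Gadd45a spread widely among the Control Transfection arrays (9.45 to 11.02 for Chrng), while Casq1 and Ldb3 do not (12.75 to 12.91 for Casq1), and Ckm lies near the top of the scale.

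Genes of muscle wasting were mostly lower or did not pass. Of 28 tested genes of ubiquitin ligases and autophagy 3 were higher and 15 were lower, with a median of -0.18. Fbxo32, the ligase atrogin-1, stood at 11.5, 11.3, 11.1 and 11.82 in Control Transfection muscles, against 12.36, 12.24 and 11.72 in Control Mobile muscles. The groups overlap at Control Transfection array 4 and Control Mobile array 3, and the fall of 0.68 ± 0.20 SE passed the test (adjusted p = 0.025) but not without Control Mobile array 2 (adjusted p = 0.0901). Trim63, the ligase MuRF1, stood at 11.14, 11.38, 11.02 and 11.9 in Control Transfection muscles, against 11.58, 11.38 and 11.03 in Control Mobile muscles (adjusted p = 0.919). Asb2 fell by 0.69 on the log2 scale, and Ulk1, a kinase that starts autophagy, by 0.63. Mt1, a metal-binding protein, was on that list although it is neither a ligase nor an autophagy gene. It was 1 of the 3 that rose, at 14.14, 14.38, 14.14 and 14.61 in Control Transfection muscles, against 12.88, 12.48 and 12.86 in Control Mobile muscles. Of 30 tested proteasome genes 19 were higher and 1 was lower, with a median of 0.23, among them Psma5 (0.53 ± 0.06 SE). Cdkn1a, the cell cycle inhibitor p21, stood at 11.13, 11.66, 11.09 and 11.89 in Control Transfection muscles, against 10.13, 9.96 and 10.25 in Control Mobile muscles. It rose by 1.33 ± 0.20 SE (adjusted p = 0.00109). Of the 24 tested p53 targets 6 were higher and 6 were lower, against 19.2% higher and 27.4% lower of all tested genes. Mdm2, the p53 ligase, did not pass (-0.12 ± 0.05 SE, adjusted p = 0.0864). Gadd45a, a gene of growth arrest and atrophy, stood at 11.3, 11.73, 11.28 and 13.16 in Control Transfection muscles, against 11.09, 10.79 and 11.1 in Control Mobile muscles. Array 4 decides its mean, and the difference did not pass (adjusted p = 0.133).

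Of 38 tested fast-fibre genes 1 was higher and 16 were lower, with a median of -0.12, against 19.2% higher and 27.4% lower of all tested genes. Many of these probes lie near the top of the scale, where small differences may be compressed. Actn3, an actinin of fast fibres, averaged 15.17 in Control Transfection and 15.30 in Control Mobile muscles at its brightest probe (difference -0.14), while its 3 probes ranged from -0.71 to -0.14. Casq1, the calcium store of the sarcoplasmic reticulum, stood at 12.75, 12.86, 12.91 and 12.88 in Control Transfection muscles, against 13.42, 13.5 and 13.51 in Control Mobile muscles. The difference was -0.63 ± 0.05 SE (adjusted p = 3.21e-05), and Ldb3, a protein of the Z-disc, and Stac3, needed for excitation-contraction coupling, differed by -0.63 ± 0.05 SE and -0.69 ± 0.09 SE. Casq1 and Ldb3 did not pass in the fit of all 17 arrays (adjusted p = 0.157 and 0.112). Atp2a1, the calcium pump of fast fibres, did not pass (-0.05 ± 0.04 SE, adjusted p = 0.342), at a mean of 15.24 in Control Transfection and 15.29 in Control Mobile muscles that leaves little room to show a difference. Of 15 tested slow-fibre genes 4 were higher and 1 was lower. Tpm3, whose transcripts occur in slow fibres and in nonmuscle cells, rose by 1.41 ± 0.13 SE at 1 of its 4 probes. The other genes that rose were Atp2a2 (0.66 ± 0.13 SE), Tnnc1 (0.74 ± 0.205 SE) and Fhl1 (0.29 ± 0.08 SE). The calls of Tnnc1 and Fhl1 were lost without some array. Myl2 was the lower gene, at -0.72 ± 0.25 SE. The groups overlap for Myl2 and Fhl1. Myh7, the slow myosin, stood at 8.53, 8.55, 8.42 and 8.44 in Control Transfection muscles, against 8.48, 8.41 and 8.47 in Control Mobile muscles.

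Genes of aerobic metabolism were lower. Of 60 genes of mitochondrial respiration 56 had a probe and 54 were tested, of which 0 were higher and 43 lower, with a median of -0.35. Cs, citrate synthase, stood at 13.16, 13.26, 13.15 and 13.09 in Control Transfection muscles, against 13.67, 13.7 and 13.78 in Control Mobile muscles. Ndufa9, a subunit of complex I, fell by 0.38 on the log2 scale, and Uqcrb, of complex III, by 0.41. Ppargc1a, a coactivator that drives mitochondrial biogenesis, stood at 9.51, 9.32, 9.55 and 9.04 in Control Transfection muscles, against 10, 9.9 and 9.72 in Control Mobile muscles. Perm1, a muscle partner of that coactivator, fell by 0.75 on the log2 scale. Of 26 tested genes of fatty acid uptake and oxidation 1 was higher and 20 were lower, with a median of -0.40. Eci1, an isomerase of unsaturated fats, stood at 12.21, 12.15, 12.05 and 12.03 in Control Transfection muscles, against 12.83, 12.94 and 12.97 in Control Mobile muscles. Plin2, a coat protein of lipid droplets, was the member that rose (0.96 ± 0.07 SE). Of 23 tested genes of glycolysis and glycogen 0 were higher and 8 lower. Ppp1r3c, which targets a phosphatase to glycogen, stood at 12.88, 12.86, 12.47 and 12.94 in Control Transfection muscles, against 14.3, 14.06 and 14.15 in Control Mobile muscles (difference -1.38 ± 0.12 SE, 2.61-fold, adjusted p = 6.24e-05). Slc2a4, the insulin-responsive glucose carrier, fell by 0.61 on the log2 scale and Pygm, glycogen phosphorylase, by 0.59. The macrophage genes given above moved in the opposite direction on the same arrays, and how far a lower share of fibre RNA enters these falls was not tested.

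Vessel genes were lower too. Of 26 tested endothelial genes 18 were lower and 3 were higher, with a median of -0.27. Cdh5, the cadherin of endothelial junctions, stood at 9.09, 9.19, 9.1 and 9.22 in Control Transfection muscles, against 9.65, 9.65 and 9.65 in Control Mobile muscles. The 3 that rose are Ly6c1, which monocytes also express, and the adhesion molecules Icam1 and Vcam1, which inflamed endothelium displays. Icam1 stood at 10.06, 10.1, 10.22 and 9.95 in Control Transfection muscles, against 8.99, 9.07 and 9.19 in Control Mobile muscles. Of 13 tested genes of smooth muscle and pericytes 10 were lower and 1 was higher, with a median of -0.37. Rgs5, a pericyte gene, stood at 9.53, 9.51, 9.58 and 9.45 in Control Transfection muscles, against 10.14, 10.05 and 10.13 in Control Mobile muscles. Of 8 tested erythroid genes 4 were lower and 0 higher, and Hba-a1, the alpha globin, stood at 13.95, 14.56, 14.03 and 13.29 in Control Transfection muscles, against 14.74, 15.15 and 14.85 in Control Mobile muscles. Its call was lost without Control Mobile array 2 (adjusted p = 0.0758).

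Matrix genes were mixed. Of 42 tested genes of matrix and fibroblasts 11 were higher and 12 were lower, against 19.2% higher and 27.4% lower of all tested genes. Vim, vimentin of mesenchymal and blood cells, stood at 13.02, 13.12, 12.93 and 12.81 in Control Transfection muscles, against 11.02, 11.2 and 11.3 in Control Mobile muscles. Timp1, an inhibitor of metalloproteinases, rose by 1.91 ± 0.06 SE and Bgn, the proteoglycan biglycan, by 0.91 ± 0.07 SE. Col1a1, of collagen I, stood at 11.96, 12.45, 12.08 and 12.39 in Control Transfection muscles, against 12.6, 13.23 and 13.63 in Control Mobile muscles, and fell by 0.93 on the log2 scale (adjusted p = 0.0125). Col3a1 and Tnc did not pass (adjusted p = 0.27 and 0.394). The largest falls of all were in genes of the skeleton. Mmp13, a collagenase of cartilage and bone, stood at 9.05, 10.91, 9.16 and 8.99 in Control Transfection muscles, against 11.07, 11.92 and 12.07 in Control Mobile muscles. Array 2 lies far above arrays 1, 3 and 4, and its value nearly reaches the lowest Control Mobile array. Bglap2, an osteocalcin gene of osteoblasts, stood at 8.5, 9.28, 8.33 and 8.49 in Control Transfection muscles, against 10.73, 10.57 and 10.87 in Control Mobile muscles (difference -2.07 ± 0.21 SE, 4.21-fold). Its neighbour Bglap, whose sequence is nearly the same, fell by 1.26 on the log2 scale. Of 10 tested tendon genes 5 were lower and 0 higher. Among them Chad, chondroadherin, stood at 11.08, 11, 10.82 and 11.45 in Control Transfection muscles, against 11.79, 12.15 and 12.33 in Control Mobile muscles. Whether the dissection took different amounts of bone or tendon with the muscle was not tested.

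Skin genes were high on Control Transfection array 2 alone. The mean of the 7 tested skin genes was -0.02, 1.32, -0.06 and -0.01 relative to Control Mobile on the Control Transfection arrays, against a mean of 0.00 on each Control Mobile array. Krt14, the keratin of basal epidermis, stood at 8.52, 10.8, 8.38 and 8.81 in Control Transfection muscles, against 8.35, 8.31 and 8.36 in Control Mobile muscles. Lor, a protein of the cornified layer, stood at 8.49, 11.24, 8.4 and 8.42 in Control Transfection muscles, against 8.39, 8.34 and 8.31 in Control Mobile muscles. Of the 7 genes 0 were called by limma, and 0 had an unadjusted p under 0.05. The strong rises do not follow that pattern: without array 2 the difference of Ifit3 was 5.12 and that of Adgre1 was 2.57.

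Stress and clock genes moved in both directions. Hmox1, haem oxygenase, rose by 0.69 ± 0.06 SE, Gpx1, a glutathione peroxidase, by 1.01 ± 0.07 SE, while Gpx3 fell by 0.74 on the log2 scale, within a list of Nfe2l2 response genes of which 10 were higher and 8 lower of 23 tested. Of 26 tested genes of the ATF4 and unfolded protein response 13 were higher and 3 were lower. Slc7a5, an importer of large amino acids, stood at 10.16, 10.54, 10.21 and 10.35 in Control Transfection muscles, against 9.21, 9.04 and 9.02 in Control Mobile muscles, whereas Atf4 itself fell by 0.62 on the log2 scale. Of 15 tested clock genes 6 were higher and 3 lower. Arntl, the activator BMAL1, stood at 8.78, 8.73, 8.68 and 8.78 in Control Transfection muscles, against 10.23, 10.07 and 9.69 in Control Mobile muscles (difference -1.25 ± 0.11 SE, adjusted p = 8.85e-05). It stood at 8.74 to 8.77 in p53 Transfection and at 9.73 to 10.03 in Control Immobile muscles, and plasmid and experiment cannot be told apart there. Nr1d1, a repressor of that gene, fell by 0.96 on the log2 scale, and Per2, which opposes the activator, rose by 0.88 ± 0.10 SE. The labels do not give the hour at which muscles were taken, and its part in these differences was not tested. Of 20 tested heat shock genes 2 were higher and 3 were lower, and of 20 tested immediate early genes 4 were higher and 1 was lower.

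**Figure D5:**
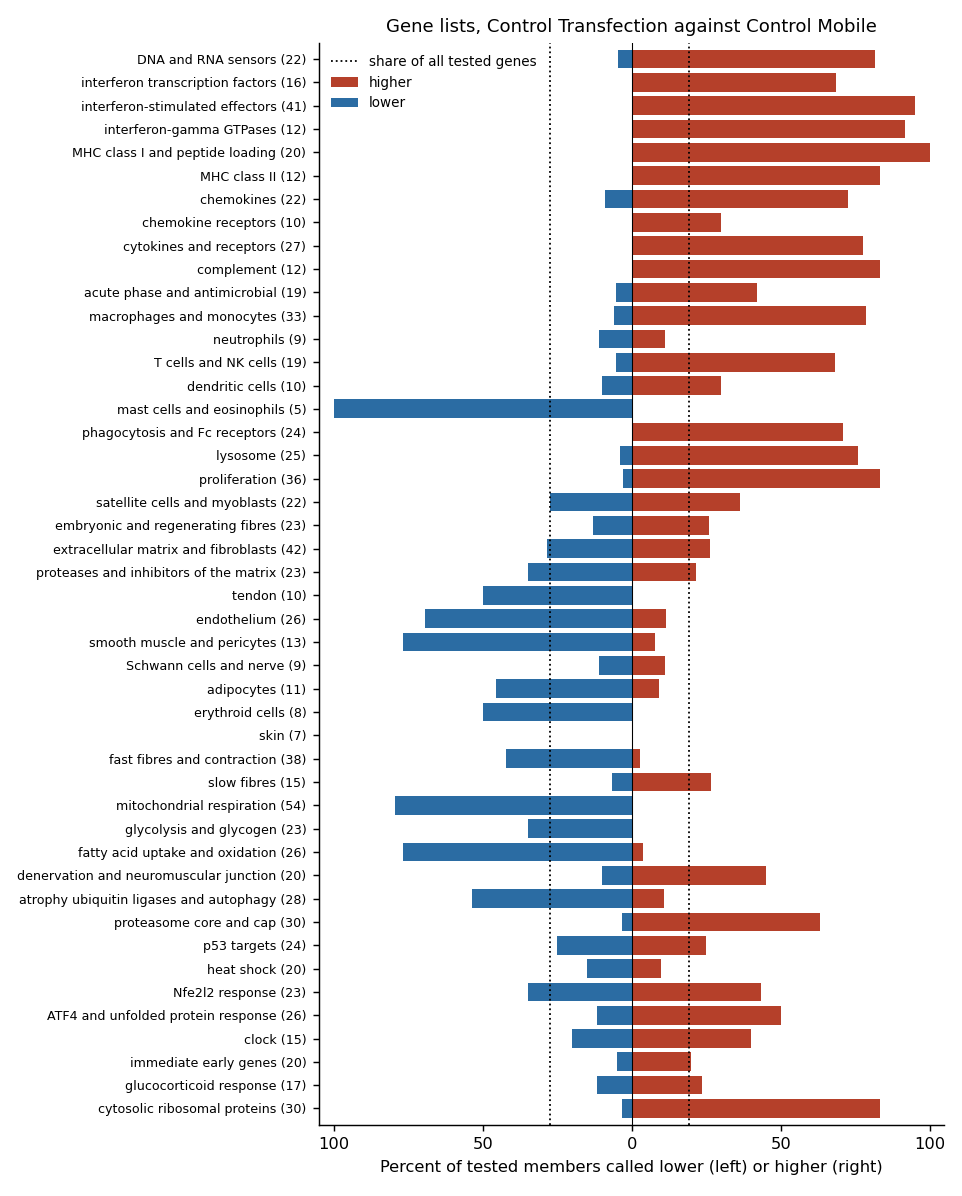
Percent of the tested members of each list that passed the test as lower (blue, to the left) or higher (red, to the right) in Control Transfection against Control Mobile muscles, for lists with at least 5 tested members (number in brackets). Dotted lines mark the shares of all tested genes, 27.4% lower and 19.2% higher. Interferon, MHC and macrophage lists reach far to the right, while mitochondrial, fatty acid and vessel lists reach far to the left.

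The muscles that received the p53 plasmid give the values of a second transfected group. Their comparison with the same Control Mobile arrays shares those arrays, so the values stand side by side with no test between them. In p53 Transfection muscles 3401 of 10793 tested genes were higher (31.5%) and 4107 were lower (38.1%) than in Control Mobile muscles, 69.6% in all. Of 41 tested interferon-stimulated effectors 39 were higher and 0 lower, as in the Control Transfection comparison by count, and of 33 tested macrophage genes 28 were higher and 2 were lower. Ifit3 differed by 4.70 in p53 Transfection and by 5.13 in Control Transfection, and Isg15 by 3.73 and 3.52 in that order of groups. Macrophage genes differed by more in p53 Transfection: Fcer1g by 4.78 against 3.37 in Control Transfection, and Trem2 by 4.43 against 2.35. Of 38 tested proliferation genes 38 were higher in p53 Transfection, with Uhrf1 at 3.11 against 1.46 in Control Transfection. Gm4841 ran the other way, at 10.06, 9.25, 10.45 and 9.08 in p53 Transfection muscles, against 12.34, 12.51, 12.83 and 12.26 in Control Transfection muscles. Igtp was likewise dimmer, at 12.02, 11.59, 12.06 and 11.15 in p53 Transfection muscles, against 12.7, 13.19, 13.27 and 12.79 in Control Transfection muscles. Skin genes averaged 0.52, -0.10, 1.63 and 2.18 above Control Mobile on the p53 Transfection arrays.

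The immobilized muscles of littermate controls give the same genes in muscle that received no plasmid by its label but was not mobile. Control Transfection minus Control Immobile equals the transfection difference less the immobilization difference, and it shares the Control Transfection arrays. Of 10550 tested genes 879 were higher (8.33%) and 1056 were lower, 18.3% in all, and without Control Immobile array 1 these counts were 1441 and 1963. Of 40 tested interferon-stimulated effectors 37 were higher and 0 lower, and 38 were higher without that array. Of 13 tested GTPases 12 were higher with and without it, and of 20 tested MHC class I genes 17 were higher with and without it. Ifit3 stood at 11.21, 10.12 and 10.36 in Control Immobile muscles, below every Control Transfection array (difference 4.08 ± 0.25 SE, adjusted p = 0.000289, limma). Igtp stood at 9.28, 8.98 and 9.26 and Ccl5 at 8.66, 8.52 and 8.53 in Control Immobile muscles, with differences of 3.81 ± 0.16 SE and 4.05 ± 0.14 SE.

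Macrophage genes depended on 1 Control Immobile array. The mean of the tested members relative to Control Mobile was 1.26 to 1.52 on the Control Transfection arrays, against 1.33, 0.47 and 0.21 on Control Immobile arrays 1, 2 and 3. Of 33 tested genes 11 were higher and 3 lower in Control Transfection, and 25 were higher and 3 lower without Control Immobile array 1. Fcer1g stood at 13.56, 11.7 and 11.07 in Control Immobile muscles, and its difference was 1.59 (adjusted p = 0.0871), or 2.32 without array 1 (adjusted p = 0.000747). For proliferation genes the counts were 1 of 36 higher with that array and 27 of 36 without it. Fbxo32 and Trim63 ran the other way: Fbxo32 stood at 13.85, 14.04 and 14.14 in Control Immobile muscles, above every Control Transfection array (difference -2.58 ± 0.17 SE, adjusted p = 0.000367), and Trim63 differed by -1.48 ± 0.21 SE. Perm1 and Smox, spermine oxidase, stood at 11.21, 10.86 and 10.92 and at 10.71, 10.42 and 10.64 in Control Immobile muscles, and Control Transfection muscles were higher by 1.58 ± 0.155 SE and 1.07 ± 0.17 SE. Smox was nevertheless lower in Control Transfection than in Control Mobile muscles, at 11.96, 11.24, 11.65 and 11.8 in Control Transfection muscles, against 13.13, 13.06 and 12.32 in Control Mobile muscles. Chrna1 and Cdkn1a did not pass between these groups (-0.06 ± 0.30 SE, adjusted p = 0.922, and -0.19 ± 0.24 SE, adjusted p = 0.633). Genes of mitochondrial respiration were low in both groups. Their means relative to Control Mobile were -0.27, -0.33, -0.3 and -0.43 on the Control Transfection arrays. On the Control Immobile arrays they were -0.41, -0.35 and -0.29, and of 54 tested genes 4 were higher and 4 lower in Control Transfection. Fast-fibre and glycolysis means were lower on every Control Immobile array than on any Control Transfection array, and fatty acid means were higher.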

How the data were processed

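Muscle RNA was labelled as biotin cRNA and hybridised to single-colour Illumina bead arrays, per the labels' protocols. The deposited values were taken as log2 from their range (8.21 to 15.61), with near-equal array medians that show a normalization between arrays by the authors. The log base, the background correction and the normalization method are not given in the sources used here. Of 25697 probes 23978 had 1 gene symbol, 0 had several and 1719 had none, and 99.9% of the named probes matched RefSeq by gene ID. Arrays were grouped by their titles, and their small number limits the precision.

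A gene was tested if it exceeded the array's 40th percentile on at least 3 of the 7 arrays compared. Differences were fitted with limma 3.58.1 in R 4.3.3 (lmFit and eBayes), with Benjamini-Hochberg adjustment over all tested genes and a threshold of 0.05. On simulated arrays the fit was tested against known changes. The comparison and its 49 gene lists (1217 genes, 1075 with a probe) were chosen with earlier results of these data known. Genes were named by rank of change, by the smallest p within each list (up to 4) or from a fixed set. Casp1, Mavs, Ifi204, Zbp1, Irf1, Ifng, Cxcl12, S100a8, S100a9, Cd163, Arg1, Ankrd1, Myh8, Ccnd1, Tap1, Psmb9 and Actn3 were chosen after their values were seen. So were Csrp3, Tnfrsf12a, Actc1, Itga7, Mymk, Hey1, Notch1, Pax3, Myf5, Calcr, Myl2, Ccr2 and Ifit1, which were added last. The alternatives were other filters, scalings, probe rules and fits, a replicate block and leaving out each array. A second promoter motif was searched and is not reported here.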

Additional observations from a re-analysis of the deposited data

Results flagged for a closer look

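Among the 4 Control Transfection arrays, single arrays lay far from the other 3 for 8 of 145 genes named above (5.52%) and for 4 list means, by Dixon's ratio of gap to range. The 145 leave out Ifi204, Zbp1 and other genes added to the text after the count. Over all tested genes the share was 634 of 10607 (5.98%), and chance alone gives about 1 in 20 groups, so the named genes do not stand out by their number. Array 4 was low for the lysosome list, whose mean was 0.93 above Control Mobile there, and for the complement list, at 0.91. It was low for Laptm5 (13.93), Grn (12.94), Il10ra (9.74) and Cpa3 (8.69). The same array was high for the proteasome list, at 0.32. Array 2 was high for the skin list, at 1.32, and for Lor (11.24), Mmp13 (10.91) and Mmp9 (8.82). Array 3 was low for Ppp1r3c (12.47). The causes were not tested.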

How the results depend on the processing

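Across the alternatives for Control Transfection minus Control Mobile, the count of higher genes ran from 1580 to 2128 and that of lower genes from 1900 to 3125, with 1900 lower genes at a threshold of 0.01, where fewer genes pass by construction. Leaving out 1 array gave 1780 to 1999 higher and 2378 to 2830 lower genes. Falls of at least 2-fold numbered 19 to 33, with 33 without Control Mobile array 1. For Control Transfection minus Control Immobile, leaving out 1 array gave 474 to 1441 higher and 443 to 1963 lower genes, and the fit of all 17 arrays gave 1720 lower genes. The cause was not tested. The labels share replicate numbers between groups, and same-numbered Control Transfection and Control Mobile arrays deviated together with r of 0.037, 0.083 and 0.049 across genes. Control Transfection array 2 gave 0.116 with Control Mobile array 3 and -0.176 with array 1. With so few arrays these correlations cannot show whether the numbers pair the arrays. With the replicate number as a block, 1949 genes were higher and 2709 lower than in Control Mobile muscles. The block gave 271 higher and 149 lower genes against Control Immobile muscles, and 3057 higher and 3525 lower genes for p53 Transfection against Control Mobile muscles. Signs turned for genes that did not pass in the alternative. Trim63 was -0.025 with array weights, -0.15 with the replicate block, and between -0.15 and 0.155 when 1 array was left out, with -0.15 without Control Transfection array 4 and -0.12 without Control Mobile array 3. Without Control Transfection arrays 2 and 4, a choice made after seeing the data, Trim63 was -0.25 and Myod1 was -0.10. Ckm was -0.003 with quantile normalization and between -0.01 and 0.03 when 1 array was left out, and Lyz1 was -0.042 as the mean of all probes. Of 232 tested genes named by rule or chosen later, with Ifi204, Zbp1 and the genes added last aside, 212 passed the test and 17 of these lost the call without some array: Kera, Fmod, Ncmap, Lep, Hbb-bt, Hba-a1, Fhl1, Tnnc1, Hspb7, Hspa4, Klf6, Fosl1, Per1, Kdm5d, Fbxo32, Ifng and Ankrd1. Of the same genes 19 lost the call in the fit of all 17 arrays, among them Casq1, Ldb3, Cx3cr1, Ulk1 and Atf4, and 7 lost it with the replicate block, among them Ifng. Dim genes near the floor give differences that are too small, those near the top of the scale may do so as well, and probes cannot be compared with each other in level.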

Other observations

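Other cell types and responses gave smaller or mixed counts between Control Transfection and Control Mobile muscles. Of 10 tested dendritic cell genes 3 were higher and 1 was lower, and of 11 tested adipocyte genes 1 was higher and 5 were lower, with a median of -0.32. Of 9 tested genes of Schwann cells and nerve 1 was higher and 1 was lower. Of 23 tested proteases and inhibitors of the matrix 5 were higher and 8 were lower, and of 17 tested glucocorticoid response genes 4 were higher and 2 were lower. The shares of all tested genes were 19.2% higher and 27.4% lower.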
